A study of Saccharomyces cerevisiae with 9 samples.

Results

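The phosphate-regulated genes of Saccharomyces cerevisiae that were examined are PHO84 (YML123C), PHO12 (YHR215W), PHO5 (YBR093C), PHO3 (YBR092C), PHO8 (YDR481C), PHO11 (YAR071W), PHO89 (YBR296C), SPL2 (YHR136C) and VTC3 (YPL019C). They were chosen by name, and 5 of these 9 genes have a row in the nucleosome tables, which hold 2426 protein-coding genes in all. PHO8, PHO11, PHO89 and SPL2 have no row and were not analysed beyond their sequence. The series belongs to a study of the RNAPII CTD phosphatase Rtr1, and WT nucleosome data served there as a reference for chromatin along the average gene. The 1 sample used here is total histone MNase-Seq of wild type cells, isogenic to BY4741 and without a tag or deletion named in its labels, an assay that sequences the DNA that nucleosomes shield from micrococcal nuclease. The other 8 samples of the series, ChIP-exo of Rpb3-FLAG and Nrd1-TAP in WT and rtr1Δ cells, were not analysed here. The study names YPD, a rich medium in which phosphate is plentiful, for its growths, and no sample starved of phosphate was analysed here. There is no replicate, so that no test was made, and every value is from this single sample.

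Yeast cells sense phosphate through the cyclin Pho80 and its kinase Pho85, which hold the transcription factor Pho4 out of the nucleus while phosphate is plentiful. When phosphate is scarce, Pho4 and its partner Pho2 bind upstream of the genes for secreted acid phosphatases, phosphate transporters and the enzymes of polyphosphate storage. The PHO5 promoter is a textbook case of nucleosomes that cover a promoter in the repressed state and are removed upon induction, with one Pho4 site exposed between nucleosomes and another covered by a nucleosome. PHO3, beside PHO5, encodes the acid phosphatase known to be made when phosphate is plentiful.

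The hexamers CACGTG and CACGTT, forms of the core bound by Pho4, were searched on both strands, and the stretches of promoter that hold them are printed for the genes with nucleosome values. All are read 5′ to 3′ on the strand of the gene from the R64 assembly, which is the assembly of sacCer3, the build of the deposited files. Capitals mark the matches, and AACGTG is CACGTT read on the other strand. A match is a description of the letters and not of binding. The PHO5 stretch lies on the minus strand of chrII:431187-431336, that of PHO84 on the minus strand of chrXIII:26041-26250, and that of VTC3 on the minus strand of chrXVI:517279-517378. The PHO12 stretch, on the plus strand of chrVIII:551669-551828, stands beside its counterpart at PHO11, on the plus strand of chrI:225030-225189, to show how nearly the promoters of these 2 genes repeat each other.
PHO5 promoter: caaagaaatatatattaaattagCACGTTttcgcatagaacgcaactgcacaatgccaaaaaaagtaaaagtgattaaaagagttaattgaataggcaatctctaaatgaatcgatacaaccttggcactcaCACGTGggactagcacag
PHO84 promoter: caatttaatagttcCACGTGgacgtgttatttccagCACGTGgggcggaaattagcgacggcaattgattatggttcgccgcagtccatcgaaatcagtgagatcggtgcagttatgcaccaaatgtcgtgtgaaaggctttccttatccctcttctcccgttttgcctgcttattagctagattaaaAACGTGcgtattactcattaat
VTC3 promoter: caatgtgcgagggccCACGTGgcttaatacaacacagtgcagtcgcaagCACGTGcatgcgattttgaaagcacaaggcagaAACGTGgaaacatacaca
PHO12 promoter: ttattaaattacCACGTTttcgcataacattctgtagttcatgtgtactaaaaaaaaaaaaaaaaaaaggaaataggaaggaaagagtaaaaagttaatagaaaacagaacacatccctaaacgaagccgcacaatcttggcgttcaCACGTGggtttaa
PHO11 promoter: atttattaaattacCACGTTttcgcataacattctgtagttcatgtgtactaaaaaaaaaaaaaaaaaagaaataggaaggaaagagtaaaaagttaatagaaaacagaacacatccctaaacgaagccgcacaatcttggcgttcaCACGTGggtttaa
In an alignment of the printed PHO12 and PHO11 stretches, 158 of 162 columns were identical.

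Within 500 nucleotides upstream of the start codon, 8 of the 9 genes held at least 1 match and 7 held at least 2. Among 6000 yeast genes with such a window the shares were 21% and 2.72%. PHO3 was the gene without a match. With CACGTG alone the number was 7 of 9, against 6.23% of all genes. In the shorter window from 250 nucleotides before to 50 after the first base of the start codon, only SPL2, which encodes a regulator of low-affinity phosphate uptake, held a match, against 11.8% of all genes. The matches thus lay mostly further upstream, with the first base at -362 and -253 at PHO5, at -436, -414 and -262 at PHO84, and at -345, -311 and -278 at VTC3.

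The deposited values are read coverage in RPM, in bins of 25 nucleotides from -500 to 1000 around the TSS and of 6.67 nucleotides from -200 to 200 around the TES. In this library 1 read is worth 0.0300 RPM, which corresponds to 3.33e+07 reads, and a floor of 3 reads is 0.0901 RPM. Values are also given as a percentile, the share of the 2426 genes with a lower value. For all genes the median signal was 6.79 RPM over the upstream promoter, from -500 to -150 nucleotides, and 4.38 RPM (quartiles 3.23 and 5.72) over the nucleosome depletion, the 4 bins from upstream of -100 to -50. It was 8.77 RPM (7.46 and 10.1) over the +1 nucleosome, from 0 to 75.

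**Figure D1:**
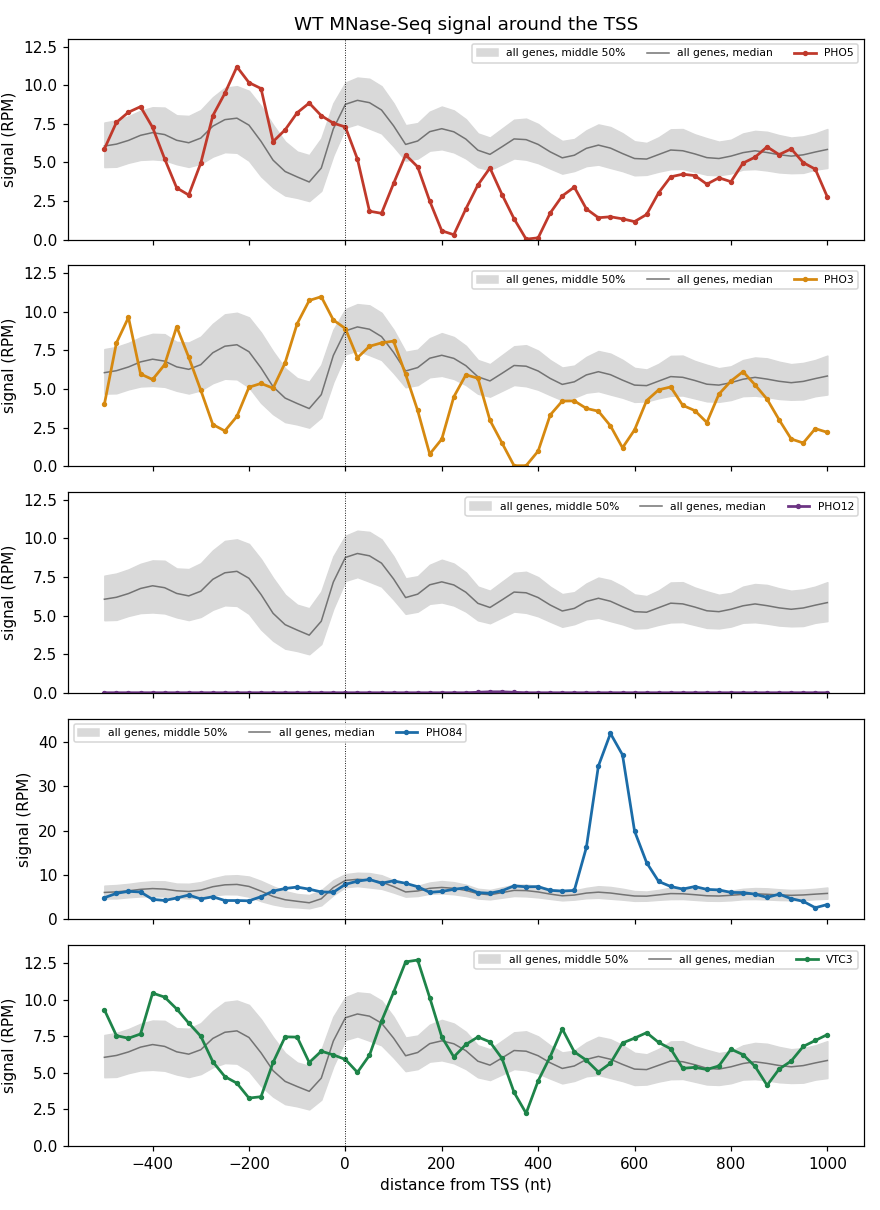
MNase-Seq signal in RPM against the distance from the TSS in nucleotides for PHO5, PHO3, PHO12, PHO84 and VTC3, with the median (grey line) and the middle 50% (grey band) of 2426 genes. PHO5, PHO3, PHO84 and VTC3 lie above the band at -100 and -75 nucleotides, PHO12 lies at or near 0, and PHO84 has a peak of 41.9 RPM at 550 nucleotides on an axis of its own.

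Where most genes have their depletion, the 4 genes with signal were well covered. PHO5 had 8.05 RPM over the depletion window (95.1st percentile), which corresponds to 268 reads per base with a 95% Poisson interval of 237 to 302. PHO3 had 9.41 RPM (98.6th percentile), or 313 reads (280 to 350), PHO84 had 6.79 RPM (87.5th percentile), or 226 reads (198 to 258), and VTC3 had 6.77 RPM (87.2nd percentile), or 225 reads (197 to 257). These intervals take the mean depth per base as a single count, although reads span several bins. They only approximate the counting error of the window mean and cover no other error. Their ends correspond to percentiles of 90.2 to 98.1 for PHO5, 96.5 to 99.5 for PHO3, 77.6 to 94 for PHO84 and 77.2 to 93.8 for VTC3. All 4 values lay above the third quartile of all genes, while PHO12 was listed at 0. Over 5 ways of placing and scaling the window the percentile of PHO5 stayed between 92.1 and 98.7, that of PHO84 between 64.6 and 91 and that of VTC3 between 76.8 and 87.2. That of PHO3 ranged from 49.1 to 99.2, and was lowest where the lowest bin between -300 and 0 nucleotides was taken. That span leaves out the lowest promoter bin of PHO5, 2.89 RPM at -325 nucleotides. Over all bins up to the TSS, the lowest bin of PHO5 was higher than that of 75.4% of genes. For PHO3, VTC3 and PHO84 these shares were 56.7%, 84% and 95.4%. The range given for PHO5 thus holds for these 5 ways only.

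The signal over the depletion was not below that over the +1 window at 3 of the 4 genes, PHO5, PHO3 and VTC3, against 8.66% of all genes (210 of 2424 above the floor). The ratio of depletion to +1 was 2.01 at PHO5, 1.19 at PHO3 and 1.05 at VTC3, and 0.809 at PHO84. The approximate intervals over the +1 window were 112 to 158 reads at PHO5, 233 to 298 at PHO3, 186 to 244 at VTC3 and 248 to 315 at PHO84. Those of PHO3, VTC3 and PHO84 overlapped the intervals over the depletion. Overlap of such intervals does not decide whether counting error covers a difference, and the order of the windows there was not tested. At PHO5 the intervals lay apart. Only PHO5 kept the call of a depletion signal not below +1 in every placement tried. With bins 25 nucleotides upstream PHO3 lost it, leaving 2 of 4, against 10.8% of all genes. With bins 25 nucleotides downstream VTC3 lost it, leaving 2 of 4, against 13.6% of all genes. When the lowest bin between -300 and 0 nucleotides was set against 50% of the highest bin around the TSS, only PHO5 kept it, against 5.40% of all genes. At PHO5 this rests on the limit of -300 nucleotides. Its lowest promoter bin, 2.89 RPM at -325, lay just outside that limit and was under 50% of its highest bin, 8.03 RPM. The lowest bin was 0.208 of the highest at PHO3, 0.260 at VTC3, 0.464 at PHO84 and 0.617 at PHO5. The call at PHO3 and VTC3 thus holds for the fixed windows only. Both genes had a gap further upstream, and so did PHO5, with its gap at the 7.91st percentile for that position. The lowest bin between -500 and 0 nucleotides lay at -325 at PHO5, -250 at PHO3, and -200 at PHO84 and VTC3, whereas the median gene had it between -150 and -100. All 4 thus had it at -200 or further upstream, as did 35.3% of all genes, a limit that was chosen after these values were seen.

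**Figure D2:**
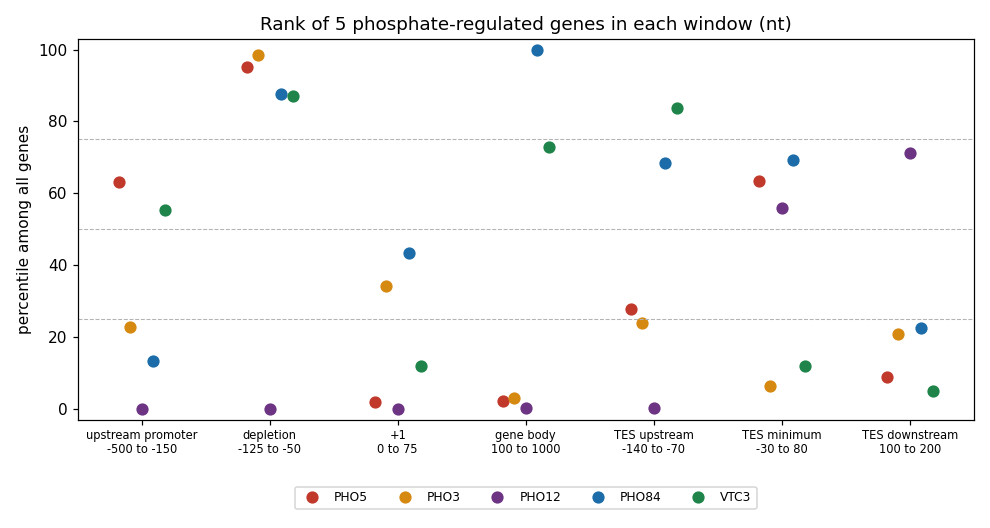
Percentile among 2426 genes (vertical axis) of PHO5, PHO3, PHO12, PHO84 and VTC3 in 4 windows around the TSS and 3 around the TES, each point 1 gene, with dashed lines at 25, 50 and 75. In the depletion window PHO5, PHO3, PHO84 and VTC3 lie between 87.2 and 98.6 and PHO12 at 0, and in the +1 window all 5 lie below 50.

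PHO5 encodes the main secreted acid phosphatase induced by lack of phosphate (coding sequence chrII:429548-430951, minus strand). Its promoter had 3 peaks, of 8.61 RPM at -425 nucleotides (78.1st percentile for that position), 11.2 RPM at -225 (86.4th) and 8.84 RPM at -75 (96.5th). Between them the signal fell to 2.89 RPM at -325 (7.91st percentile) and to 6.35 RPM at -150 (63.4th). PHO5 thus had a narrow gap far upstream and peaks on both sides of it, while the usual gap next to the TSS held the third peak. Over the +1 window the signal was only 4.01 RPM (1.98th percentile) and fell to 1.70 RPM at 75 nucleotides, so that the order of depletion and +1 was the reverse of the median gene's. With the TSS placed as described below, the bins at 50 and 75 nucleotides lie in coding sequence that resembles PHO3. Identity there was 83.3% and 79.5% over up to 75 bases, and a loss of reads in the +1 window was not tested.

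The position of the TSS of PHO5 is not listed in the tables, and was placed by matching the signal to how unique each 50-mer of the sequence is. The best match put it 40 nucleotides before the start codon (35 to 45 for other k-mer lengths and near-equal fits, r = 0.51 over 35 bins, the highest of the distances tried with 50-mers). With this placement CACGTT was centred at -320 nucleotides, next to the lowest promoter bin, where the signal was 3.34 RPM (8.78th percentile). CACGTG was centred at -211 nucleotides, beside the highest peak, where it was 10.6 RPM (85th percentile) and exceeded 23 of the 24 bins from -500 to 75. With the TSS moved by 10 nucleotides either way the signal was 2.97 to 4.17 RPM at CACGTT and 10.2 to 11 RPM at CACGTG. One match in the printed PHO5 stretch therefore lay in the trough and the other under the peak, and the values at the 2 matches did not overlap over these placements.

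PHO3, the neighbouring acid phosphatase gene (chrII:427698-429101, minus strand), had peaks of 9.63 RPM at -450 nucleotides (90.8th percentile), 9.03 RPM at -350 (84.9th) and 11 RPM at -50 (98.3rd). Its lowest promoter bin was 2.28 RPM at -250 (3.96th percentile). Over the upstream promoter PHO3 had 5.63 RPM (22.8th percentile) and over +1 it had 7.92 RPM (34.3rd). PHO3 thus shared with PHO5 a trough upstream and a peak over the usual depletion, although the promoters are only 50.4% identical and PHO3 holds no match to the hexamers. The troughs lay apart, at -325 nucleotides in PHO5 and -250 in PHO3. VTC3 and PHO84 also had a trough, at -200, and a peak over the usual depletion, at the 84.6th and 88.7th percentile. Across the 61 bins the profiles of PHO5 and PHO3 had r = 0.44, and some of these bins lie in repeated sequence common to both genes.

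Downstream of +1, from 100 to 1000 nucleotides, PHO5 had 3.12 RPM (2.14th percentile) and PHO3 3.47 RPM (3.05th), against a median of 6.02 RPM. The coding sequences of these genes are 86.5% identical, and PHO5 and PHO12 are 83.5% identical. The longest run of bases common to PHO5 and PHO3 is 98 bases, from base 298 to 395 of each coding sequence, and is shown with 15 bases on each side because the signal of both genes fell to the worth of 1 read there. Capitals mark the identical run, in PHO5 on the minus strand of chrII:430542-430669 and in PHO3 on the minus strand of chrII:428692-428819.
PHO5 coding: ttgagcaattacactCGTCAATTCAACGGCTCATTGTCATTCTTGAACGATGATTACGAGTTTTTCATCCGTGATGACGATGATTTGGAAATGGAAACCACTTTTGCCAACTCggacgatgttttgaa
PHO3 coding: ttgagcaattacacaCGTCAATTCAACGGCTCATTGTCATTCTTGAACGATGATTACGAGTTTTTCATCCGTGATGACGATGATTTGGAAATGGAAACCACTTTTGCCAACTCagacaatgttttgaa
Inside the run the lowest bin was 0.0300 RPM in both genes, and the highest was 1.72 RPM at PHO5 and 1.5 RPM at PHO3, over 4 bins each. In coding bins where the genes were at least 90% identical over 75 bases the mean was 1.01 RPM at PHO5 (8 bins) and 1.56 RPM at PHO3 (9 bins), and in the other 31 bins of each gene it was 3.58 and 4.43 RPM. The correlation of identity with signal was -0.73 over 39 bins at PHO5 and -0.54 over 40 bins at PHO3, and neighbouring bins share reads. The genes were placed by the match of signal to unique sequence, at 40 nucleotides from TSS to start codon at PHO5 and 20 at PHO3, so that part of this relation is built in. At PHO5 the signal was also at 0 from -187 to -167 nucleotides of the TES. Where identity is high, low signal cannot be told apart from the loss of reads that fit more than one gene. The PHO5 promoter consists of 50-mers that occur once. So do the PHO5 coding bins at 200 and 225 nucleotides, with 0.569 and 0.316 RPM and 96% and 92% identity to PHO3. Over 500 bases the promoters of PHO5 and PHO12 are 56.1% identical. Identity over shorter stretches of the promoter was not computed, and a loss of reads in its trough was not tested.

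**Figure D3:**
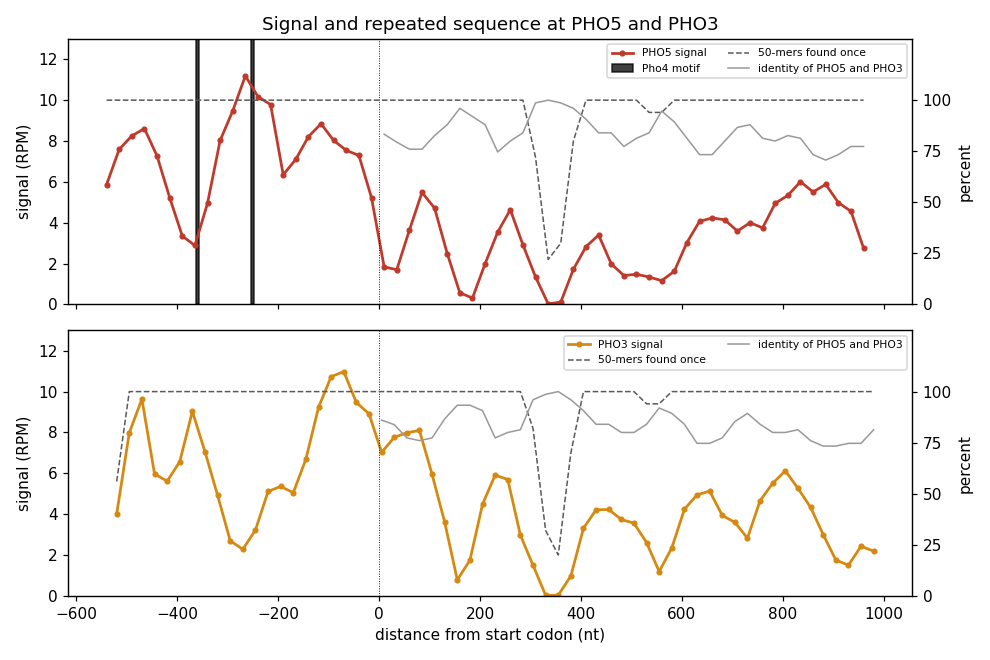
Signal in RPM (coloured, left axis) at PHO5 and PHO3 against the distance from the start codon in nucleotides, with the share of 50-mers found once and the identity of both genes over 75 bases (grey, percent, right axis) and the hexamer matches of PHO5 (black bars). The signal of both genes falls to 0.0300 RPM where identity is highest, and at PHO5 one match lies beside the promoter trough and one beside the highest peak.

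PHO12 encodes a further acid phosphatase induced by lack of phosphate (chrVIII:552099-553502, plus strand). Around its TSS 57 of 61 bins were at 0, and the other 4, from 275 to 350 nucleotides, reached at most 0.0600 RPM, or 2 reads. Its mean over the window, 0.00295 RPM, was the lowest of all 2426 genes. In sequence, PHO12 was 99.7% identical to PHO11 over the coding sequence (1400 of 1404 bases) and 99.2% over 500 bases of promoter, and only 6.96% of the 50-mers from 500 nucleotides before to 1000 after its start codon occur once. No statement on nucleosomes at the PHO12 promoter can be made from these values, and its 2 hexamer matches both lay at 0 RPM.

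Repeated sequence as a whole went with low signal in these tables. PHO12 was the only gene with under 10% of unique 50-mers around the start codon, and 8 genes with 10 to 50% had a median of 2.37 RPM over the TSS window. It was 5.33 RPM in 170 genes with 50 to 99%, and 6.35 RPM in 2246 genes with at least 99%. Of the 9 phosphate genes, PHO12, PHO11, PHO5 and PHO3 had repeated sequence by this limit of 99%, around the start codon or the stop codon. PHO84, VTC3, PHO8, PHO89 and SPL2 consisted of unique 50-mers in all windows. The treatment of reads with several matches is not given in the sources used here, and its part in the low values was not tested.

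PHO84 encodes the high-affinity phosphate transporter of the plasma membrane (chrXIII:24037-25800, minus strand). Its promoter was flatter than that of PHO5, with 5.06 RPM over the upstream promoter (13.2nd percentile) and peaks of 6.30 RPM at -450, 5.47 RPM at -325 and 7.27 RPM at -100 nucleotides, the last at the 88.7th percentile. The troughs were 4.25 RPM at -375 and 4.17 RPM at -200, and the lowest promoter bin, 4.17 RPM, was higher than that of 95.4% of genes. PHO84 thus had neither a deep gap nor a high peak upstream of the TSS. The +1 window, at 8.40 RPM (43.4th percentile), was close to the median gene, with the top at 50 nucleotides. The distance from TSS to start codon could not be found from repeats here, and for any distance from 0 to 100 nucleotides the 3 matches in the printed PHO84 stretch had 4.28 to 6.21, 4.26 to 5.43 and 4.18 to 5.88 RPM.

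Within the PHO84 gene the signal rose to 41.9 RPM at 550 nucleotides, which was 7.07 times the median of all genes at that position and the second highest of all genes there. The peak was 92 nucleotides wide at 50% of its height. Without the 8 bins of 25 nucleotides up to 650 that hold the peak, the mean downstream of +1 was 6.27 RPM (55.4th percentile) instead of 9.71 RPM (99.8th), so that the high rank of PHO84 downstream of +1 rested on this peak. The sequence at the peak consists of 50-mers that occur once. An antisense RNA, YNCM0001W, is annotated across PHO84 at chrXIII:23564-26578 on the plus strand, and its link to the nucleosome signal was not tested.

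VTC3 encodes a subunit of the vacuolar transporter chaperone complex, which makes polyphosphate (chrXVI:514511-517018, minus strand). Upstream it had peaks of 10.4 RPM at -400 (92nd percentile) and 7.46 RPM one bin upstream of -100 nucleotides (84.6th), and a trough of 3.27 RPM at -200 (12.1st). The first bin of the window, at -500, had 9.31 RPM, an edge value whose summit cannot be placed. The +1 window had 6.42 RPM (12th percentile) with a low of 5.03 RPM at 25 nucleotides, and the signal then rose to 12.7 RPM at 150 (99.8th). The highest peak of VTC3 downstream of the TSS thus lay outside the +1 window, which holds the +1 peak of the median gene. The 3 matches in the printed VTC3 stretch had 4.60 to 9.07, 3.61 to 7.80 and 3.29 to 5.79 RPM for distances of 0 to 100 nucleotides from TSS to start codon, too wide a range to place them in the peak or in the trough.

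Taking shape alone, the gene whose 61-bin profile was most like each was RPS29A, for a ribosomal protein, with PHO84 (r = 0.82), which also had a peak of 30.9 RPM at 550 nucleotides. For PHO5 it was HXT7, for a hexose transporter (r = 0.75), for PHO3 it was PLB1, for a phospholipase (r = 0.78), and for VTC3 it was KCS1, for an inositol hexakisphosphate kinase (r = 0.67). Each r is the highest over all genes not near the member, and describes likeness of profile only.

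At the TES the genes differed widely. The median gene had 7.42 RPM from -140 to -70 nucleotides, 6.04 RPM from -30 to 80 and 7.21 RPM from 100 to 200. PHO84 had 8.46, 7.35 and 5.23 RPM in these windows, with the middle window at the 69.4th percentile. VTC3 had 9.57, 3.21 and 2.95 RPM, and PHO3 had 5.74, 2.59 and 5.04 RPM, with the middle window at the 12th and the 6.27th percentile. Of these genes only PHO3 had its lowest of the 3 windows at the TES, while the signal of VTC3 and PHO84 was lower still downstream, with lows of 0.419 RPM at 140 nucleotides and 2.92 RPM at 133. PHO3 was also low far upstream of the TES, at 0.119 to 0.570 RPM from -200 to -140 nucleotides (below the 3rd percentile in each bin). PHO5 had at most 0.389 RPM over the same bins. All 50-mers within 200 nucleotides of the PHO3 stop codon are unique, but identity to PHO5 was not computed at the TES. A loss of reads there was not tested.

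PHO5 had 6.05, 6.93 and 3.70 RPM and PHO12 had 0.0383, 6.42 and 8.46 RPM in the same windows. These 2 of 5 genes had no lower signal at the TES than upstream of it, against 38.4% of all genes (931 of 2422), a share so close that it says nothing particular of the phosphate genes. In both, the upstream window lies in or beside repeated coding sequence. At PHO12 the signal rose from under 3 reads to 50% of its highest value between -80 and -13.3 nucleotides, and reached 9.62 RPM at 120 nucleotides (18 bins lay under the floor). Only 73.9% of the 50-mers within 200 nucleotides of its stop codon occur once, and 86.1% at PHO5.

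**Figure D4:**
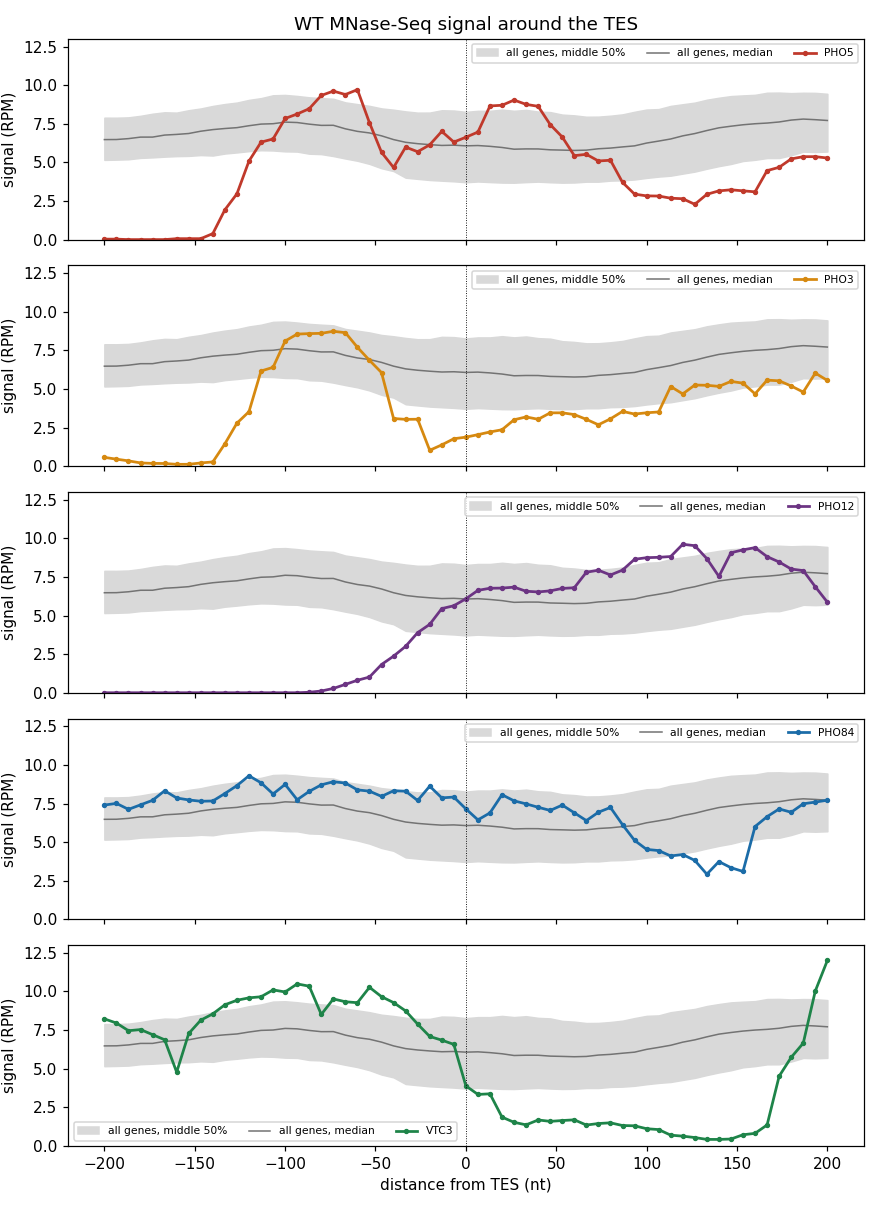
MNase-Seq signal in RPM against the distance from the TES in nucleotides for PHO5, PHO3, PHO12, PHO84 and VTC3, with the median (grey line) and the middle 50% (grey band) of 2426 genes. VTC3 falls to 0.419 RPM at 140 nucleotides, PHO12 is near 0 up to -80 nucleotides and reaches 9.62 RPM at 120.

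Downstream of 3 of the genes the neighbour on the same strand is also in the tables, so that both profiles cover the same DNA. The TES of PHO5 and the TSS of PHO3 matched best at a distance of 375 nucleotides (r = 0.97 over 49 bins), so the bins after the PHO5 TES are also the far upstream promoter of PHO3. With 446 nucleotides between the coding sequences, this leaves 71 for the stretch after the PHO5 stop codon and that before the PHO3 start codon, for which the match to unique sequence had given 65 and 20. The TES of PHO84 and the TSS of TUB3, which encodes an alpha-tubulin, matched best at 180 nucleotides (r = 0.93 over 61 bins). The low of 2.92 RPM at 133 nucleotides after the PHO84 TES then lies beside the low of 3.10 RPM at -50 nucleotides of TUB3. The TES of VTC3 and the TSS of ULP1, which encodes a SUMO protease, matched best at 140 nucleotides (r = 0.99 over 61 bins). The low of 0.419 RPM at 140 nucleotides after the VTC3 TES then falls on the TSS of ULP1, with 0.421 RPM. Each distance is the best of those tried, and the low signal after these TESs lies in DNA that is also the promoter of the next gene.

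Among 24 further genes of phosphate signalling, transport and storage, 9 have a row. Of these, 6 lay above and 3 below the median of all genes at the depletion, with a median percentile of 59.1 (7.30 to 85). The highest were PHM6, a gene induced by lack of phosphate, with 6.55 RPM, and PHM7 with 6.54 RPM. The lowest were VIP1, an inositol pyrophosphate synthase, with 2.18 RPM, and VTC4, the polyphosphate polymerase subunit of the complex to which Vtc3 belongs, with 2.72 RPM. VTC4 and VTC3 therefore lay on opposite sides of the median gene. The ratio of depletion to +1 was below 1 at all 9 (0.202 to 0.982), as it was at most genes, since 8.66% of all genes lacked a depletion by this rule.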

How the data were processed

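Per the deposited tables, each gene has 101 columns of coverage signal in RPM around the TSS and the TES. The authors sequenced MNase-digested WT chromatin on a SOLiD instrument, mapped reads to sacCer3 with bfast and computed the signal with ngs.plot. The read extension, transcript annotation, pooling and handling of reads with several matches are not given in the sources used here. Extension and binning widen peaks and fill troughs.

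Of the 101 columns the first 20 and last 20 only repeat the values of their inner neighbours and were not used. Values at the window edges (9633 above 0) were all whole multiples of the worth of 1 read, within 0.001 of a read. Genes were ranked on window means. Calls were made on genes with at least 3 reads in the higher window. Peaks needed a prominence of 1 RPM. Sequence, gene positions, unique 50-mers and hexamers came from RefSeq R64, where 2425 of 2426 names were found. The hexamer window planned as 250 bases before to 50 after the start was cut from the genome.

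The genes named are all members, the likest gene to each, the 2 highest and 2 lowest of the other phosphate genes at the depletion, and neighbours that share a stretch. The members and lists were chosen with earlier results of these data known. The floor in calls, the placement of the TSS, the identity of paralogues and the limit of -200 nucleotides were chosen after seeing the data. The software was pandas 2.3.3, numpy 2.4.6 and scipy 1.17.1 under Python 3.11.15, with matplotlib 3.10.9 for plots.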

Additional observations from a re-analysis of the deposited data

How the results depend on the processing

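Of 34 values under alternatives, 14 stayed close to the main value and 20 moved, and the cause was not tested unless stated. The median percentile of the 5 genes at the depletion, 87.5, was 81 on a scale of each gene's own mean, 85.7 and 79.1 with bins 25 nucleotides upstream and downstream, and 76.8 with the lowest bin. At +1, 12 became 6.47, 8.37 and 32.6 under the first 3 of these, and 25 with the highest bin. Over the upstream promoter, 22.8 became 41.1 with own means and 27.7 with bins downstream. At the TES, 55.8 became 67 with own means and 7.87 over all bins, which take in the low signal upstream of the TES of PHO12, PHO5 and PHO3. Without PHO12, an alternative chosen after seeing the data, the 4 medians were 91.3, 23.1, 39.1 and 37.8, by construction, since PHO12 was at 0 in the first 3 windows and was itself the median at the TES. With the lowest bin against 50% of the highest, only 1 member, PHO5, lacked a depletion, against 5.40% of all genes. The low of PHO5, 2.89 RPM at -325 nucleotides, lay outside the span searched for that bin. With bins 20 nucleotides downstream, 1 member of 5, PHO12, lacked a dip at the TES, against 40% of all genes (969 of 2421). Hexamers were found at 1 member in the short window, at 8 within 500 nucleotides and at 7 with CACGTG alone there, the last chosen after seeing the data. No paired analysis was possible because the analysed group holds a single sample. Counting error, the lack of a replicate and the unlisted TSS positions limit the ranks. At the depletion the approximate interval for counting error alone spans percentiles of 77.6 to 94 for PHO84.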
